A study of Homo sapiens with 9 samples.

Results

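The unfolded protein response and the integrated stress response were read through 42 listed genes in HCCC-9810 cells, a human cholangiocarcinoma (bile duct cancer) line. Members were taken as every probe set of the arrays whose single gene symbol was one of the 42 names, which gave 124 probe sets. Of the 18132 genes with a probe set, 12434 passed the brightness filter and were tested, and 41 of the 42 members were among them. The exception was ERN1, the endoplasmic reticulum sensor kinase IRE1, whose 2 probe sets averaged 21.4 and 18.6 against a filter of 25.5. RNA was measured on Affymetrix arrays in 9 samples, 3 per group: cells given BAP1 siRNAs (si-BAP1), cells given MBD5 siRNAs (si-MBD5) and a control. BAP1 is a nuclear deubiquitinase and MBD5 a protein with a methyl-CpG-binding domain. The control is named si-Control in some labels and a control shRNA in others, and is called si-Control here; which of the pair was used is not settled. All groups are 1 cell line with no drug or stress treatment named, no source used here gives the time after transfection, and the 3 samples of a group are called biological replicates.

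When unfolded proteins build up in the endoplasmic reticulum (ER), 3 membrane sensors, PERK (EIF2AK3), IRE1 (ERN1) and ATF6, start the unfolded protein response, which raises chaperones, folding enzymes and the machinery that withdraws misfolded proteins for degradation. PERK, and GCN2 (EIF2AK4) when amino acids run short, phosphorylate the translation factor eIF2 alpha; general translation then slows while translation of the factor ATF4 rises, and ATF4 with its partners induces genes of amino acid synthesis, tRNA charging and feedback control. This second route is the integrated stress response. Much of its control lies in translation, splicing and proteolysis, which a probe set for total mRNA of a gene does not read.

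The members did not move as a block in either knockdown. With si-BAP1, 14 of 41 tested members differed from si-Control, 7 higher and 7 lower, or 34.1%, beside 23.5% of all genes tested (12.4% higher, 11.1% lower). With si-MBD5, 13 of 41 differed, 4 higher and 9 lower, or 31.7%, beside 16.3% of all genes (7.29% higher, 8.99% lower). The median log2 difference over the 41 members was -0.0055 with si-BAP1 and -0.029 with si-MBD5, and that of all genes was 0.00047 and 0.000085. The median size of the difference, whatever its sign, was 0.086 in both comparisons for the members and 0.071 and 0.065 for all genes. The arrays of a knockdown and of si-Control did not overlap for 17 of 41 members in each comparison, or 41.5%, beside 37.5% and 30.4% of all genes. The count of members that passed with si-MBD5 was 7 without si-Control replicate 2 and 8 without si-MBD5 replicate 1.

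These differences are small. On the scale used, the difference in mean log2(intensity + 16), the members ranged from -0.45 to 0.45 with si-BAP1 and from -0.28 to 0.39 with si-MBD5, with standard errors (SE) of 0.026 to 0.091. Differed, rose and fell are used where the limma p adjusted by Benjamini-Hochberg over all 12434 genes was under 0.05. A fold derived from this scale is smaller than the ratio of the intensities because 16 was added to each. In all sentences on single genes, intensities are the deposited linear values of the gene's brightest probe set, listed for replicates 1, 2 and 3, and they are not comparable between genes.

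**Figure D1:**
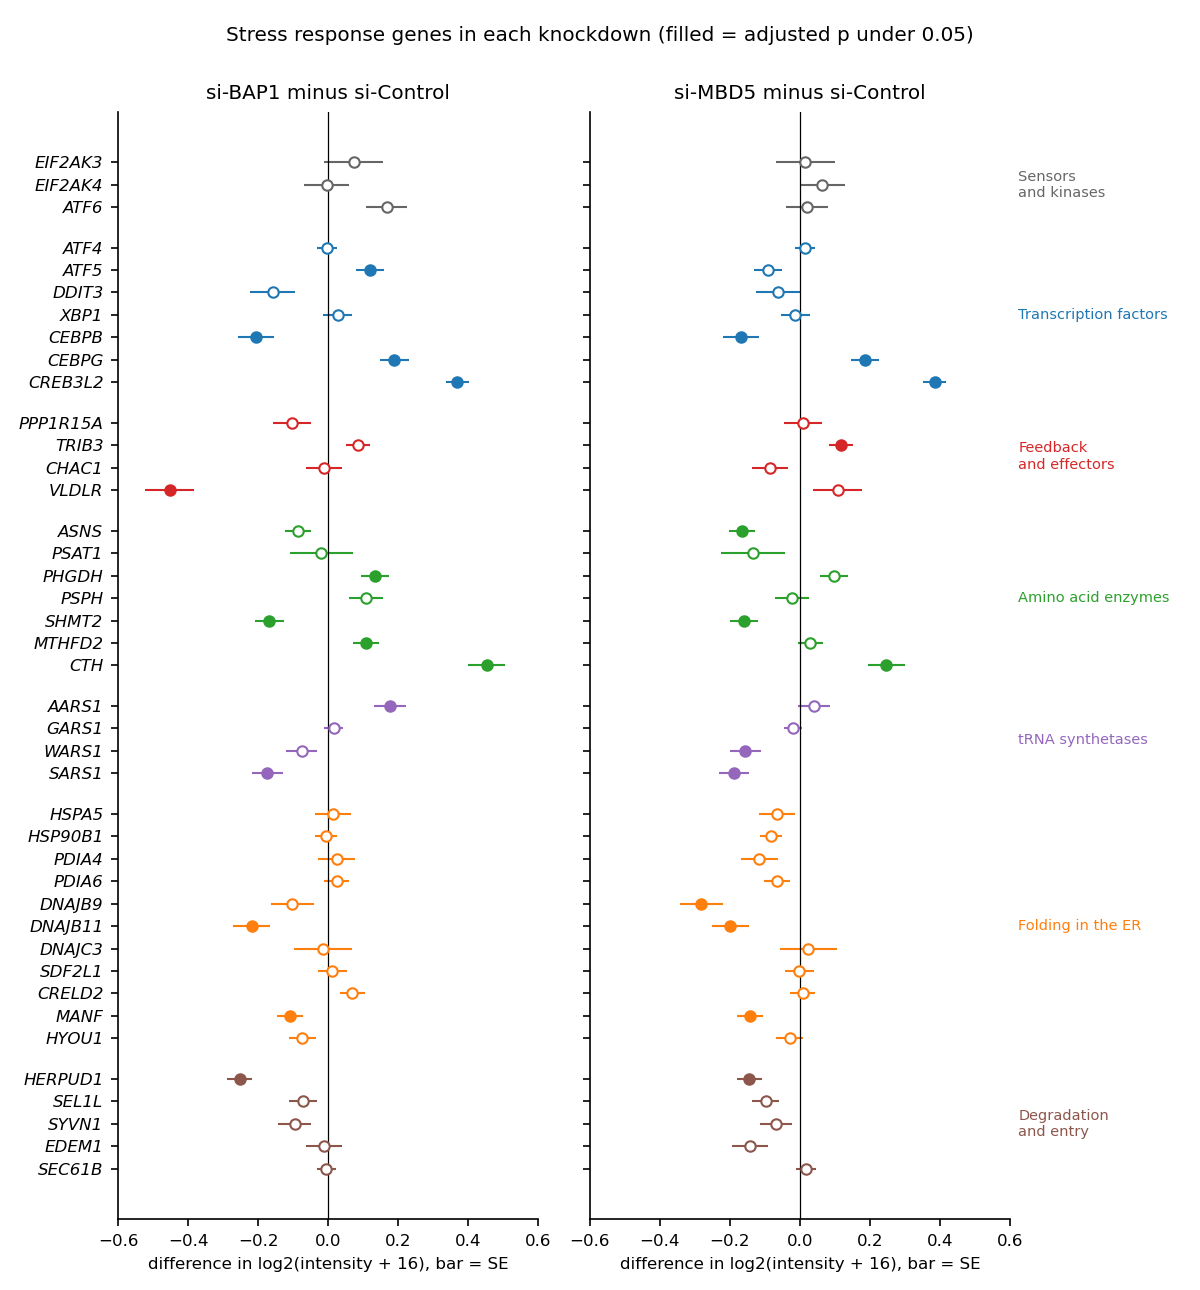
Each row is 1 of the 41 tested members, grouped by role; the x axis is the difference in mean log2(intensity + 16) from si-Control (n = 3 arrays per group), bars are the SE from limma, and filled points passed an adjusted p of 0.05. Filled points lie on both sides of 0 among the transcription factors and amino acid enzymes, while those among folding and degradation genes all lie below 0.

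The plot of all members by role shows 9 genes that passed in both knockdowns, each with the same sign in both. CEBPG, CREB3L2 and CTH were higher in both, and CEBPB, SHMT2, SARS1, DNAJB11, MANF and HERPUD1 were lower in both. Both comparisons share the 3 si-Control arrays, and over all genes 11.2% passed with the same sign in both. With si-BAP1 only, ATF5, PHGDH, MTHFD2 and AARS1 passed as higher and VLDLR as lower. With si-MBD5 only, TRIB3 passed as higher and ASNS, WARS1 and DNAJB9 as lower. The remaining 23 tested members passed in neither, and 0 passed with opposite signs. The shares of all genes that passed in 1 knockdown only, in neither or with opposite signs were not counted. These member counts therefore have no background beside them. Passing in 1 knockdown only does not show a difference between knockdowns, which was tested directly and is given further on.

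The knockdown could be checked for MBD5 only in part, and BAP1 itself was not analysed here. MBD5 was dim: its brighter probe set read 7.16, 7.06 and 6.90 in si-Control and 6.20, 6.20 and 6.11 in si-MBD5, groups that do not overlap (exact permutation p = 0.1, two-sided, the smallest that 3 against 3 arrays allow; limma adjusted p = 0.302). Its other probe set averaged 2.39 and 2.34 (exact permutation p = 0.8), and both lie far below the filter of 25.5. The 9 arrays had medians of 36.9 to 38.2, correlated at 0.998 to 0.999 within groups and at 0.996 to 0.998 between groups, and had a median within-group SD of 0.061 log2. The ratio of 3-prime to 5-prime signal for ACTB, a measure of RNA integrity and labelling, was 12.2 ± 0.52 in si-Control, 11.1 ± 0.31 in si-BAP1 and 12.3 ± 0.72 in si-MBD5 (SD, n = 3 each). The si-BAP1 arrays lay below all si-Control arrays in this ratio (exact permutation p = 0.1). The same ratio for GAPDH was 1.06 ± 0.026, 1.08 ± 0.011 and 1.07 ± 0.0046. There the si-BAP1 mean was the higher and its arrays overlapped si-Control (exact permutation p = 0.3, and 0.7 for si-MBD5). The part of the ACTB shift in the si-BAP1 differences below was not tested. Of 7 biliary epithelial markers, KRT7, KRT8, KRT18 and SOX9 were above the filter and KRT19, EPCAM and CDH1 were not. Markers above the filter numbered 2 of 5 for hepatocytes and 2 of 5 for fibroblasts. For endothelium 3 of 4 were above it, and for immune cells 2 of 5. Each of these lists summed to no more than 132 in any array, and the biliary list to at least 3228. Intensities are not comparable between genes, so these sums do not measure relative cell content. KRT7 passed as lower in both knockdowns (log2 difference -0.15 and -0.19, limma adjusted p = 0.0236 and 0.0113) and KRT8 as higher with si-BAP1 (0.31, adjusted p = 0.000228). PDGFRB, a fibroblast marker, passed as higher in both (0.16 and 0.24, limma adjusted p = 0.0406 and 0.00629). COL1A1, the other fibroblast marker above the filter, differed by 0.02 and -0.0049 (adjusted p = 0.882 and 0.965). COL1A2, DCN and LUM were below the filter. The fibroblast list, here PDGFRB and COL1A1 alone, summed to 80.0 to 85.9 in si-Control, 88.7 to 96.0 in si-BAP1 and 88.6 to 100.1 in si-MBD5. The part of these marker shifts in the members' differences was not tested. In a bulk sample, fewer cells with a transcript and less of it per cell cannot be told apart.

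The best known DNA elements of the pathway were searched in RefSeq promoter windows (GRCh38.p14), from 250 bases before to 50 after each annotated start, to show which members carry them beside how each member moved. The ER stress element ERSE (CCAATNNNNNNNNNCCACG) and ERSE-II (ATTGG, any base, then CCACG) are bound by ATF6 and XBP1, and the C/EBP-ATF response element CARE (searched as TGATGNAA) by ATF4 with C/EBP partners. Both strands were read, and no match of one motif overlapped a match of another. The sequences below are the bases before the HSPA5 and HERPUD1 starts, genes whose transcripts gave the main results among chaperone and degradation genes, and shorter stretches around a match in 5 further members; capitals mark the matches, in the reading direction of the gene, so that an opposite-strand match appears as its reverse complement.
HSPA5 (chr9:125241344-125241593, minus strand, ERSE): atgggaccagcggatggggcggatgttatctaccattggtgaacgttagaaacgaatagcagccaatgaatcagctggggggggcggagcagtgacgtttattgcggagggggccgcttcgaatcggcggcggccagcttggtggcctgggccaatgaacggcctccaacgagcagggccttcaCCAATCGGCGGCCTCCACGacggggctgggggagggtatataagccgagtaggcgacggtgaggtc
HERPUD1 (chr16:56931892-56932141, plus strand, CARE then ERSE-II): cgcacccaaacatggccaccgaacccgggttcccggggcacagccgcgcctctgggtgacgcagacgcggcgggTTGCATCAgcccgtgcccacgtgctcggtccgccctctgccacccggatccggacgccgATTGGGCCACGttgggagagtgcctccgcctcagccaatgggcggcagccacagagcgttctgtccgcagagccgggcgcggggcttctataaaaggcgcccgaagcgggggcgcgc
XBP1 (chr22:28800583-28800641, minus strand, ERSE): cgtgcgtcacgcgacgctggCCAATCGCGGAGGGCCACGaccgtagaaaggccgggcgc
HYOU1 (chr11:119057254-119057304, minus strand, ERSE-II): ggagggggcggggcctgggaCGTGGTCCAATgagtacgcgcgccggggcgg
CEBPG (chr19:33374051-33374098, plus strand, CARE): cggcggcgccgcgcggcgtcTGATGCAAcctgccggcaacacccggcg
ASNS (chr7:97872449-97872496, minus strand, CARE): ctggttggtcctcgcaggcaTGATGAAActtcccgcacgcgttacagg
AARS1 (chr16:70289666-70289713, minus strand, CARE): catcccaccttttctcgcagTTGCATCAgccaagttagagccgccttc

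Promoter windows were listed for 40 of the 42 members, with up to 3 starts per gene, and not for SHMT2 and PSPH. ERSE was found in 5 of the 40 (XBP1, HSPA5, HSP90B1, PDIA6 and CRELD2), or 12.5%, beside 0.0916% of the 27305 genes in the table and 0.0769% of its 35116 windows. ERSE-II was found in SDF2L1, HYOU1 and HERPUD1, or 7.5%, beside 0.0696% of genes and 0.0541% of windows. CARE was found in 7 members, CEBPG, CREB3L2, CHAC1, ASNS, AARS1, GARS1 and HERPUD1, or 17.5%, beside 4.46% of genes and 3.62% of windows; the CREB3L2 match lies after the more downstream of its 2 annotated starts. A match is a description of letters in a window, and a window without one says nothing about the factor. Members holding CARE passed in both directions. Of the 8 holders of ERSE or ERSE-II, 0 were higher and 1, HERPUD1, was lower in each knockdown by the brightest probe set, or 12.5%, below the 23.5% and 16.3% of all genes. The differences of these 8 ran from -0.25 to 0.07 with si-BAP1 and from -0.15 to 0.0078 with si-MBD5. HSPA5, counted here as not passing, was lower on 4 of its 6 probe sets with si-BAP1 and on 5 with si-MBD5. Of the 31 other tested members with a window, 7 were higher and 5 lower with si-BAP1, and 4 higher and 7 lower with si-MBD5. Of the 7 holders of CARE, 3 were higher (CEBPG, CREB3L2, AARS1) and 1 lower (HERPUD1) with si-BAP1, and 2 were higher (CEBPG, CREB3L2) and 2 lower (ASNS, HERPUD1) with si-MBD5. The 32 members without CARE gave 4 higher and 5 lower, and 2 higher and 6 lower. Over all genes tested, 12.4% were higher and 11.1% lower with si-BAP1, and 7.29% higher and 8.99% lower with si-MBD5. The motif groups are small, and the difference between holders and other members was not tested.

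**Figure D2:**
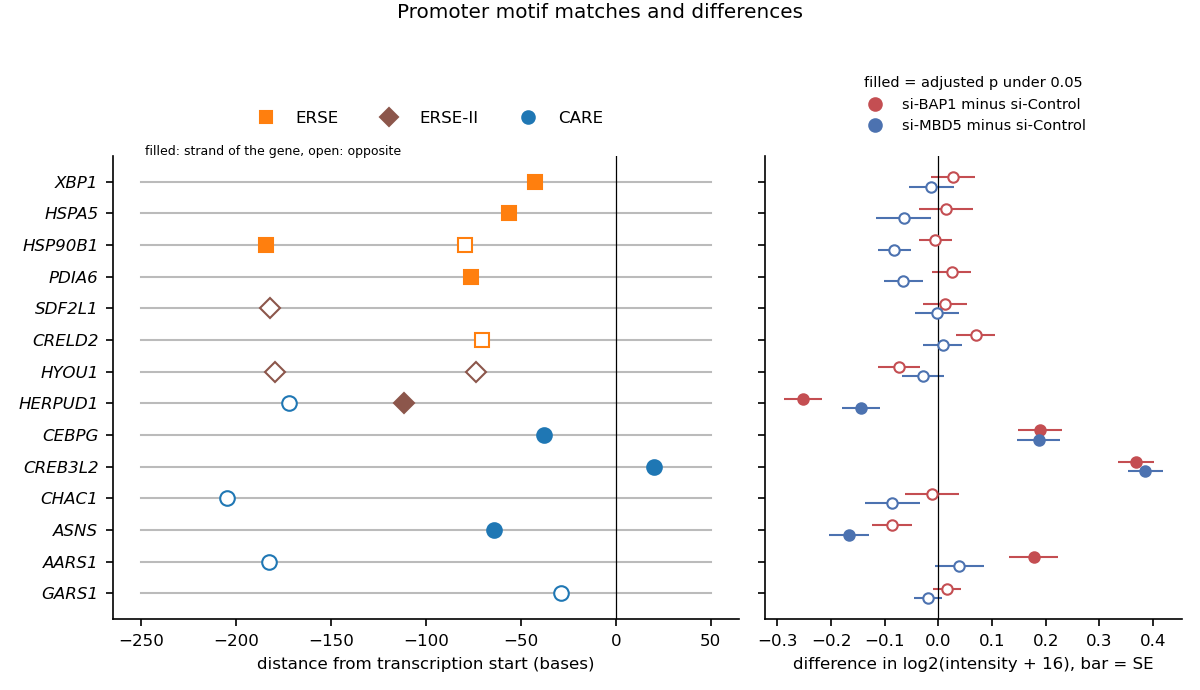
Left, centres of motif matches in the 14 members that hold one, in bases from the annotated start, filled on the strand of the gene and open on the opposite strand; right, the difference of the same genes from si-Control in log2(intensity + 16), with the SE from limma (n = 3 arrays per group) and filled points where the adjusted p was under 0.05. HERPUD1 is the only gene with 2 kinds of match and lies below 0 in both knockdowns, while CEBPG and CREB3L2 lie above 0 in both.

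Of the 3 tested sensors and kinases, 0 passed against si-Control in limma, and 1 of them, ATF6 with si-BAP1, had an unadjusted p under 0.05. EIF2AK3 (PERK) differed by 0.07 (SE 0.084) with si-BAP1 and 0.01 with si-MBD5, and EIF2AK4 (GCN2) by -0.0038 and 0.06 (SE 0.064). Outside the 42, the eIF2 alpha kinase EIF2AK1 rose in both, by 0.16 (limma adjusted p = 0.00442) and 0.15 (adjusted p = 0.00869). A further such kinase, EIF2AK2, differed by -0.05 and -0.02 and did not pass. ATF6, a membrane-bound factor released by cleavage in the Golgi, read 208, 211 and 214 in si-Control, 212, 258 and 249 in si-BAP1, and 217, 217 and 208 in si-MBD5. The si-BAP1 arrays 2 and 3 lay above the other 7 arrays, but array 1 did not, and the difference of 0.17 (SE 0.059) missed the threshold (limma adjusted p = 0.0581). Without that array ATF6 passed as higher (adjusted p = 0.00205), as it did just under the threshold with a stricter filter (adjusted p = 0.0484). Its 2 further probe sets differed in sign with si-BAP1 and did not pass. They were at -0.05 and 0.16 (limma adjusted p = 0.515 and 0.0909 over probe sets).

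The mRNAs of the 3 central transcription factors showed no difference past the threshold. ATF4, the effector of the integrated stress response, read 3272, 3208 and 3093 in si-Control, 3142, 3151 and 3260 in si-BAP1, and 3183, 3241 and 3240 in si-MBD5. All groups overlap, and the 95% interval of the log2 difference was -0.06 to 0.06 with si-BAP1 and -0.05 to 0.07 with si-MBD5. XBP1, whose mRNA is spliced by IRE1 into the form that encodes the active factor, read 545, 562 and 570 in si-Control, 585, 562 and 562 in si-BAP1, and 537, 539 and 587 in si-MBD5, with intervals of -0.06 to 0.12 and -0.10 to 0.08. DDIT3 (CHOP), the factor tied to cell death under lasting stress, read 200, 198 and 184 in si-Control, 155, 186 and 177 in si-BAP1, and 170, 192 and 194 in si-MBD5. Its difference was -0.16 (SE 0.065, limma adjusted p = 0.102) with si-BAP1 and -0.06 (adjusted p = 0.597) with si-MBD5. Without si-BAP1 replicate 2, or with quantile normalization, DDIT3 passed as lower with si-BAP1 (adjusted p = 0.0494 and 0.0488). No setting tried gave a rise past the threshold of ATF4, XBP1 or DDIT3 in either knockdown.

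CREB3L2 had the largest rise among the transcription factors in both knockdowns. It encodes BBF2H7, an ER membrane factor of the ATF6 type that supports the secretory pathway, best known in cartilage. Its intensity was 1259, 1283 and 1213 in si-Control, 1590, 1651 and 1620 in si-BAP1, and 1634, 1686 and 1601 in si-MBD5. Every knockdown array lay above every control array. The log2 difference was 0.37 (SE 0.033, limma adjusted p = 3.47e-06, 1.29-fold) with si-BAP1 and 0.39 (adjusted p = 7.47e-06, 1.31-fold) with si-MBD5. Of its 6 probe sets above the filter, 5 passed as higher with si-BAP1 and 4 with si-MBD5, with differences of 0.13 to 0.49 and 0.06 to 0.40. The call was kept under all 17 alternatives tried in each comparison.

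The C/EBP factors, partners and competitors of ATF4 on CARE elements, went in opposite directions. CEBPG, which dimerises with ATF4, read 599, 578 and 560 in si-Control, 668, 667 and 651 in si-BAP1, and 629, 667 and 687 in si-MBD5, again with no overlap between knockdown and control. It rose by 0.19 in both (SE 0.041, limma adjusted p = 0.00388 and 0.0067). A further, dimmer CEBPG probe set did not pass, at 0.08 (adjusted p = 0.188 over probe sets) and -0.03 (adjusted p = 0.691), and with the mean of the probe sets the si-MBD5 call was lost (adjusted p = 0.129, within a range of 0.00425 to 0.129 over the alternatives). CEBPB, a factor of stress and acute phase responses, read 842, 884 and 943 in si-Control, 763, 755 and 787 in si-BAP1, and 814, 831 and 727 in si-MBD5. It fell by 0.21 (SE 0.052, limma adjusted p = 0.0102) and by 0.17 (adjusted p = 0.0423); the second call was lost without si-Control replicate 2 or 3 or without si-MBD5 replicate 1 or 3 (adjusted p from 0.0249 to 0.161 over the alternatives).

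ATF5, another factor whose translation rises under eIF2 alpha phosphorylation, was the member of this group that separated the knockdowns. It read 161, 158 and 159 in si-Control, 175, 177 and 171 in si-BAP1, and 149, 152 and 145 in si-MBD5, so that the 3 groups form 3 separate bands. The rise with si-BAP1 was 0.12 (SE 0.039, limma adjusted p = 0.0425), a call lost when any 1 array of either group was left out (adjusted p from 0.028 to 0.132 over the alternatives). With si-MBD5 the difference was -0.09 (adjusted p = 0.143). The direct difference, si-BAP1 minus si-MBD5, was 0.21 (limma adjusted p = 0.004), higher in all 3 si-BAP1 arrays, and was kept under all 17 alternatives; the 3 further probe sets of ATF5 did not pass in either comparison with si-Control, with differences of 0.07 to 0.15 and of -0.11 to -0.04.

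Feedback and effector genes are common readouts of ATF4 and CHOP activity. PPP1R15A (GADD34), which directs the phosphatase that reverses eIF2 alpha phosphorylation, read 186, 186 and 170 in si-Control, 172, 163 and 166 in si-BAP1, and 176, 172 and 197 in si-MBD5. CHAC1, which breaks down glutathione, read 175, 181 and 165 in si-Control, 170, 170 and 176 in si-BAP1, and 151, 170 and 168 in si-MBD5. Neither passed: PPP1R15A differed by -0.10 (limma adjusted p = 0.213) and 0.01 (adjusted p = 0.952), and CHAC1 by -0.01 (adjusted p = 0.908) and -0.09 (adjusted p = 0.299).

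TRIB3, a pseudokinase that restrains ATF4, read 823, 793 and 793 in si-Control, 838, 847 and 872 in si-BAP1, and 847, 885 and 884 in si-MBD5. Both knockdown groups lay wholly above the control group. The rise passed with si-MBD5, at 0.12 (SE 0.034, limma adjusted p = 0.0341), and not with si-BAP1, at 0.08 (adjusted p = 0.0994). The si-MBD5 call was lost without si-Control replicate 2 or 3 or without si-MBD5 replicate 2 or 3, and on averaging its probe sets (adjusted p from 0.015 to 0.256 over the alternatives).

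VLDLR, a lipoprotein receptor induced by the PERK and ATF4 arm, had the largest fall of any member. It had 1 probe set above the filter. Its intensity was 92.0, 102 and 94.7 in si-Control, 58.8, 67.0 and 72.2 in si-BAP1, and 94.2, 112 and 108 in si-MBD5. All 3 si-BAP1 arrays lay below the other 6 arrays. The difference from si-Control was -0.45 (SE 0.070, limma adjusted p = 0.000309, 1.37-fold lower) with si-BAP1 and 0.11 (adjusted p = 0.346) with si-MBD5. The direct difference between the knockdowns was -0.56 (SE 0.070, limma adjusted p = 0.000201, 1.48-fold lower with si-BAP1), lower in all 3 arrays, and the calls of both comparisons were kept under all 17 alternatives.

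**Figure D3:**
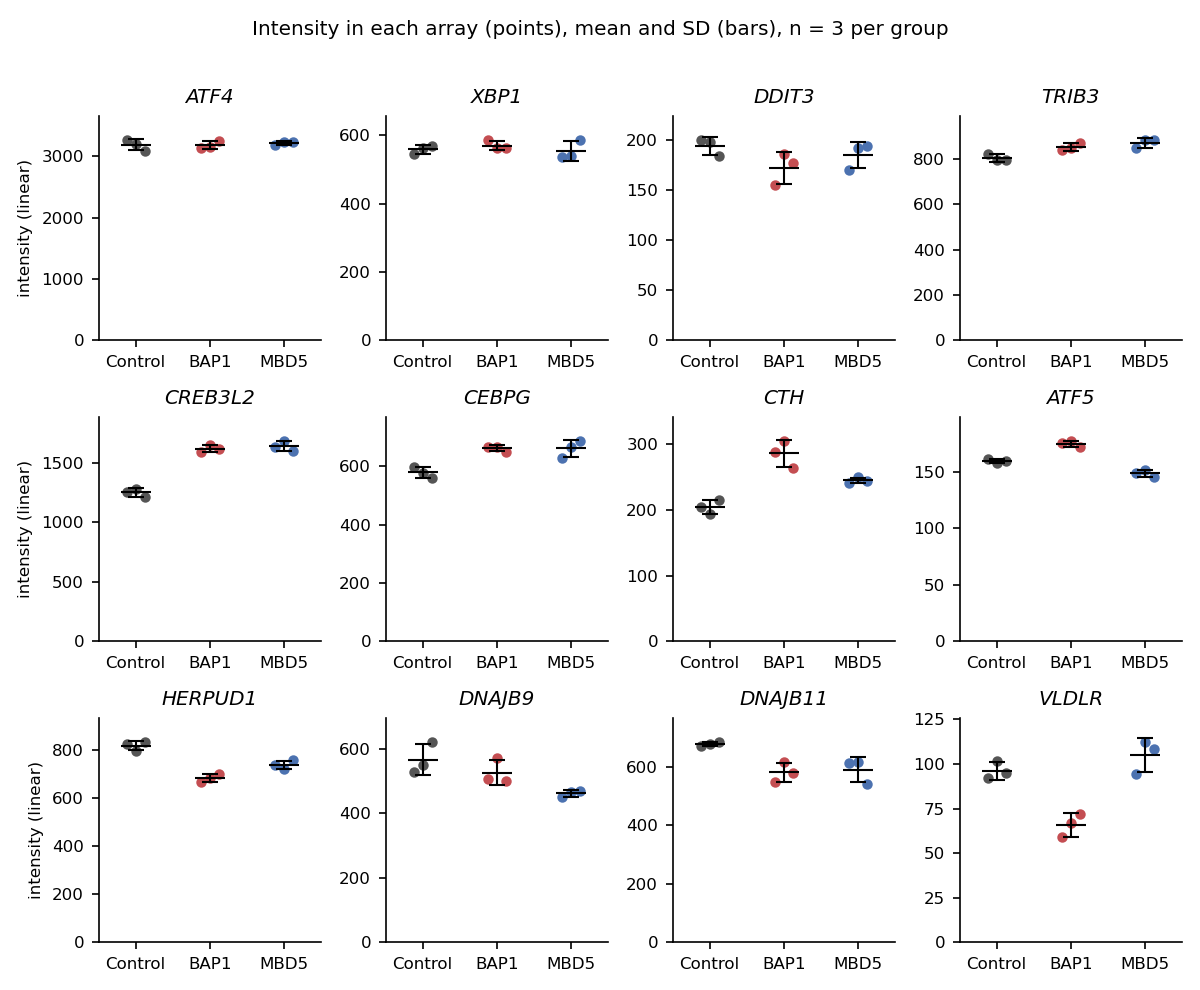
Deposited linear intensity (y axis, from 0) of 12 members in each array, as points for si-Control, si-BAP1 and si-MBD5, with the mean and SD (n = 3 per group). ATF4 and XBP1 are level across groups, CREB3L2, CEBPG and CTH are higher in all knockdown arrays than in all control arrays, HERPUD1 and DNAJB11 are lower in all of them, and VLDLR is lower with si-BAP1 only.

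The amino acid enzymes, classic ATF4 targets, split in direction, as the plot of intensities by array shows for CTH. Of 7 tested, 3 rose and 1 fell with si-BAP1, or 57.1% beside 23.5% of all genes, and 1 rose and 2 fell with si-MBD5, or 42.9% beside 16.3%. CTH, cystathionine gamma-lyase, which makes cysteine by transsulfuration, read 204, 194 and 214 in si-Control, 288, 305 and 264 in si-BAP1, and 241, 249 and 244 in si-MBD5. The groups form 3 bands, with si-BAP1 highest. The rise was 0.45 (SE 0.053, limma adjusted p = 3.6e-05, 1.37-fold) with si-BAP1 and 0.25 (adjusted p = 0.00614, 1.19-fold) with si-MBD5. The difference between the knockdowns was 0.21 (SE 0.053, limma adjusted p = 0.0244), and this call was lost without si-BAP1 replicate 1 or 2 or without si-MBD5 replicate 1 (adjusted p from 0.0127 to 0.106 over the alternatives).

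ASNS, asparagine synthetase, read 1660, 1675 and 1744 in si-Control, 1597, 1552 and 1633 in si-BAP1, and 1494, 1581 and 1446 in si-MBD5. Both knockdown groups lay below the control group. The fall passed with si-MBD5, at -0.17 (SE 0.037, limma adjusted p = 0.00772), and not with si-BAP1, at -0.09 (adjusted p = 0.121). All 4 ASNS probe sets had negative differences in both knockdowns, between -0.12 and -0.09 with si-BAP1 and between -0.22 and -0.16 with si-MBD5, where 3 of the 4 passed.

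The serine and one-carbon enzymes showed the same lack of a common direction. SHMT2, the mitochondrial serine hydroxymethyltransferase, read 559, 565 and 536 in si-Control, 491, 482 and 499 in si-BAP1, and 469, 499 and 514 in si-MBD5. It fell by 0.17 (limma adjusted p = 0.0084) and by 0.16 (adjusted p = 0.0173). The second call was lost without si-Control replicate 1 or 2 or without si-MBD5 replicate 1 (adjusted p from 0.00386 to 0.0843 over the alternatives). Of the 4 SHMT2 probe sets above the filter, 2 passed as lower in each knockdown. Differences of the 4 ran from -0.22 to -0.11 with si-BAP1 and from -0.20 to -0.10 with si-MBD5. MTHFD2, the next mitochondrial enzyme of that pathway, was higher by 0.11 with si-BAP1 (adjusted p = 0.0488), and PHGDH, the first enzyme of serine synthesis, by 0.13 (adjusted p = 0.028). The latter 2 calls were close to the threshold. MTHFD2 was lost without si-BAP1 replicate 1 or 2 or si-Control replicate 1 or 2 (adjusted p from 0.0228 to 0.189 over the alternatives). Of its 5 probe sets, 1 passed as higher with si-BAP1, and the brightest did not (limma adjusted p = 0.057 over probe sets). PHGDH was lost without any 1 si-BAP1 replicate or without si-Control replicate 2 or 3 (adjusted p from 0.0113 to 0.112 over the alternatives). PSPH, which completes serine synthesis, differed by 0.11 (adjusted p = 0.128) and -0.02. PSAT1, the enzyme between them, had a brightest probe set that differed by -0.02 and -0.13 (adjusted p = 0.915 and 0.378), passing as lower with si-MBD5 when replicate 2 was left out (adjusted p = 0.0435); of its 8 probe sets, 2 dim ones passed as higher with si-BAP1, at 0.21 each (adjusted p = 0.0291 and 0.0387 over probe sets).

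The 4 aminoacyl-tRNA synthetases, which charge tRNAs and are raised together by ATF4, also differed among themselves. AARS1 (alanine) read 467, 477 and 435 in si-Control, 522, 523 and 521 in si-BAP1, and 447, 473 and 498 in si-MBD5. It rose with si-BAP1 by 0.18 (SE 0.046, limma adjusted p = 0.0117), on both of its probe sets, and differed by 0.04 (adjusted p = 0.638) with si-MBD5. The rise was lost without si-Control replicate 3, the lowest control array (adjusted p = 0.0524, within a range of 0.00564 to 0.0524 over the alternatives). SARS1 (serine) went the other way, at 1003, 971 and 916 in si-Control, 848, 830 and 878 in si-BAP1, and 804, 846 and 882 in si-MBD5. Every knockdown array lay below every control array, with falls of 0.17 (adjusted p = 0.010) and 0.19 (adjusted p = 0.00974). The SARS1 calls were lost only without si-Control replicate 1 (adjusted p = 0.0516, lowest 0.00539) and without si-MBD5 replicate 1 (adjusted p = 0.0514, lowest 0.0043), respectively.

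WARS1 (tryptophan) read 759, 802 and 727 in si-Control, 708, 718 and 741 in si-BAP1, and 655, 715 and 677 in si-MBD5. It fell with si-MBD5 by 0.16 (SE 0.044, limma adjusted p = 0.027) and on all 3 of its probe sets above the filter, while the si-BAP1 difference of -0.07 did not pass (adjusted p = 0.261). The si-MBD5 call on the brightest probe set was lost without si-Control replicate 1 or 2 or without si-MBD5 replicate 1 or 3 (adjusted p from 0.00504 to 0.139 over the alternatives). GARS1 (glycine) had the narrowest SE of the members, 0.026, and differed by 0.02 and -0.02.

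Chaperones and folding enzymes of the ER were the largest group, with 11 members. With si-BAP1, 2 fell and 0 rose in limma, or 18.2%, below the 23.5% of all genes that passed (11.1% lower); with si-MBD5, 3 fell and 0 rose, or 27.3%, beside 16.3% (8.99% lower). At an unadjusted p under 0.05 the counts were 2 and 5, again with 0 higher, or 18.2% and 45.5%, beside 33.5% and 28.4% of all genes. DNAJB9 (ERdj4), a co-chaperone of BiP and target of spliced XBP1, read 528, 550 and 621 in si-Control, 507, 571 and 501 in si-BAP1, and 449, 467 and 470 in si-MBD5. All si-MBD5 arrays lay below the other 6. Its fall with si-MBD5 was 0.28 (SE 0.060, limma adjusted p = 0.0061, 1.22-fold lower), and its difference with si-BAP1 was -0.10 (adjusted p = 0.271); the direct difference of 0.18 between the knockdowns missed the threshold (adjusted p = 0.0838).

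DNAJB11 (ERdj3), another BiP co-chaperone, read 670, 679 and 685 in si-Control, 549, 616 and 577 in si-BAP1, and 612, 616 and 540 in si-MBD5. All 6 knockdown arrays lay below the controls, with falls of 0.22 (SE 0.053, limma adjusted p = 0.00779) and 0.20 (adjusted p = 0.0199). The second was lost without si-Control replicate 2 or 3 or without si-MBD5 replicate 3 (adjusted p from 0.0127 to 0.0702 over the alternatives). MANF, a secreted ER protein induced by stress, read 2357, 2333 and 2148 in si-Control, 2135, 2157 and 2038 in si-BAP1, and 2056, 2076 and 2053 in si-MBD5. It fell by 0.11 (limma adjusted p = 0.0438) with 1 array of each group overlapping, and by 0.14 (adjusted p = 0.0169) with no overlap. Both MANF calls were weak to the choice of arrays and settings. The first was lost when any 1 si-BAP1 replicate, or si-Control replicate 1 or 2, was left out. It was also lost with quantile normalization, median centring, no filter, no intensity trend or 2 groups only. The second was lost without si-Control replicate 1 or 2 or si-MBD5 replicate 1, and with no intensity trend. The limma adjusted p reached 0.179 and 0.0853 over the alternatives, from 0.00496 and 0.00271.

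HSPA5 encodes BiP, the master chaperone of the ER and the usual gauge of ER stress, and its 6 probe sets did not give 1 answer. The brightest read 4192, 4420 and 4824 in si-Control, 4392, 4671 and 4487 in si-BAP1, and 4315, 4542 and 3984 in si-MBD5, with groups that overlap and differences of 0.01 (limma adjusted p = 0.890) and -0.06 (adjusted p = 0.454). The next brightest read 1663, 1644 and 1614 in si-Control, 1467, 1570 and 1527 in si-BAP1, and 1435, 1458 and 1286 in si-MBD5. The third read 519, 552 and 530 in si-Control, 417, 474 and 391 in si-BAP1, and 410, 447 and 419 in si-MBD5. In each of the 5 dimmer probe sets all 6 knockdown arrays lay below the 3 control arrays.

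**Figure D4:**
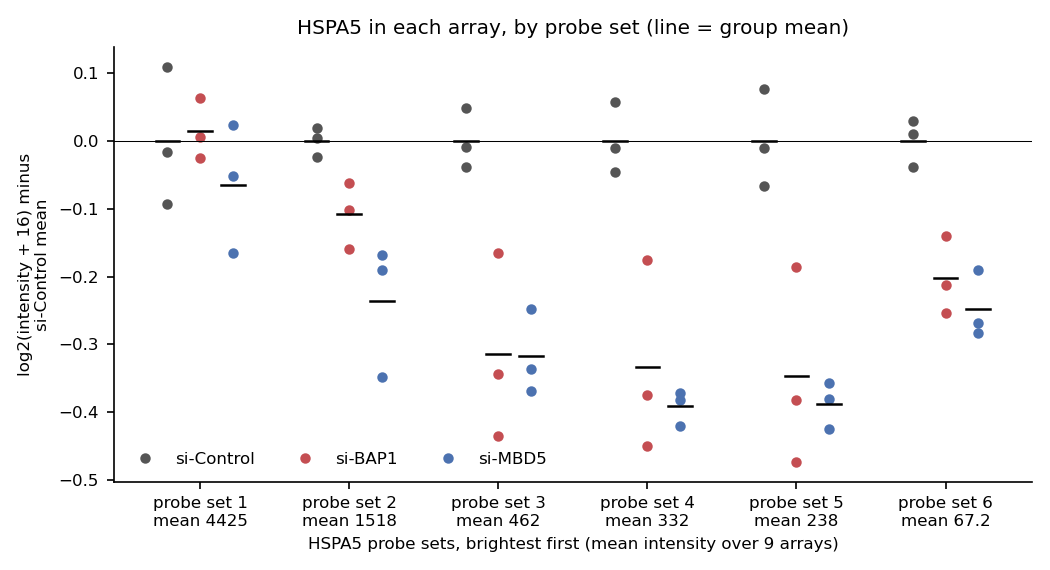
log2(intensity + 16) of each array minus the si-Control mean (y axis) for the 6 HSPA5 probe sets, brightest first (x axis, with the mean intensity over 9 arrays); points are arrays and lines the group means (n = 3). The groups mix in probe set 1 and separate from si-Control in probe sets 2 to 6, where differences run from -0.11 to -0.35 with si-BAP1 and from -0.24 to -0.39 with si-MBD5.

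The 5 dimmer HSPA5 probe sets fell with si-MBD5 by 0.24, 0.32, 0.39, 0.39 and 0.25 (limma adjusted p of 0.001 to 0.00476 over the 27195 probe sets tested, n = 3 arrays per group). With si-BAP1 they differed by -0.11, -0.31, -0.33, -0.35 and -0.20, of which the first did not pass (adjusted p = 0.112) and the other 4 did (adjusted p of 0.00141 to 0.00932). The plot of HSPA5 by probe set shows that the disagreement is between the brightest probe set and the rest, in both knockdowns. With the mean of its probe sets in place of the brightest, HSPA5 was lower by 0.22 (adjusted p = 0.00291) and by 0.27 (adjusted p = 0.00109), and after removal of all _x_at and _s_at sets, by 0.31 (adjusted p = 0.00171) and by 0.32 (adjusted p = 0.00284). Those suffixes mark probe sets that may bind more than 1 transcript. The probe sequences were not used here, so which transcript ends the probe sets read was not examined.

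The other chaperones did not pass on their brightest probe set. HSP90B1 (GRP94), PDIA4 and PDIA6, folding partners of BiP in the ER, differed by -0.0060, 0.02 and 0.02 with si-BAP1 and by -0.08, -0.12 and -0.07 with si-MBD5 (adjusted p = 0.0925, 0.162 and 0.265). All 7 HSP90B1 probe sets and all 3 of PDIA4 and of PDIA6 had negative differences with si-MBD5, and none of the 13 passed. HSP90B1 passed as lower without si-MBD5 replicate 2 (adjusted p = 0.0437). DNAJC3, SDF2L1, CRELD2 and HYOU1 differed by between -0.07 and 0.07 with si-BAP1 and by between -0.03 and 0.02 with si-MBD5.

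HERPUD1, which gathers the ubiquitin ligase complex for ER-associated degradation and is a standard marker of the unfolded protein response, was the degradation gene that fell in both knockdowns. It read 821, 795 and 832 in si-Control, 665, 683 and 699 in si-BAP1, and 735, 719 and 755 in si-MBD5. The groups form 3 bands, with si-BAP1 lowest. The fall was 0.25 (SE 0.036, limma adjusted p = 0.000156, 1.19-fold lower) with si-BAP1 and 0.15 (adjusted p = 0.0135, 1.11-fold lower) with si-MBD5, seen in all 3 of its probe sets in both and kept under all 17 alternatives. The direct difference between the knockdowns, -0.11, missed the threshold (adjusted p = 0.0766).

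The other 4 degradation and entry genes did not pass. SEL1L and SYVN1, the core of the HRD1 ligase, differed by -0.07 and -0.10 with si-BAP1 and by -0.10 and -0.07 with si-MBD5. EDEM1, a lectin that picks misfolded glycoproteins, differed by -0.01 and -0.14 (adjusted p = 0.903 and 0.081), with all si-MBD5 arrays below all si-Control arrays; it passed as lower without si-MBD5 replicate 3 (adjusted p = 0.0334). SEC61B, a subunit of the translocation channel, differed by -0.0055 and 0.02. A dimmer SEL1L probe set passed as higher with si-BAP1, at 0.16 (adjusted p = 0.0449 over probe sets), opposite in sign to the brighter one.

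Over all 109 member probe sets above the filter, 14 were higher and 13 lower with si-BAP1, or 24.8%, beside 20.5% of all probe sets (11.6% higher, 8.88% lower). With si-MBD5, 7 were higher and 20 lower, also 24.8%, beside 12.9% of all probe sets (6.09% higher, 6.8% lower); 5 of the 20 belong to HSPA5. Probe sets of 1 gene share its transcript and are not independent. Of the 41 tested members, 15 had 1 probe set above the filter and 26 had several. Further probe sets existed for 7 of the 14 members called with si-BAP1 and 7 of the 13 with si-MBD5. The calls of VLDLR, CTH, PHGDH, CEBPB, SARS1, DNAJB9, DNAJB11 and MANF rest on 1 probe set each.

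Between the knockdowns, 3 of 41 members differed, or 7.32%, beside 9.97% of all genes (5.76% higher, 4.21% lower): ATF5 and CTH were higher and VLDLR lower with si-BAP1, with the values given above. The median si-BAP1 minus si-MBD5 difference was 0.035 over the members and 0.0030 over all genes. AARS1 differed by 0.14 (limma adjusted p = 0.0778) and ATF6 by 0.15 (adjusted p = 0.150), neither past the threshold. AARS1 passed without si-MBD5 replicate 3 (adjusted p = 0.0298), ATF6 without si-BAP1 replicate 1 (adjusted p = 0.00995) and HERPUD1, as lower with si-BAP1, under quantile normalization (adjusted p = 0.0378). The arrays of the 2 knockdowns did not overlap for 12 of 41 members, or 29.3%, beside 25% of all genes.

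Genes of the same pathways outside the 42 gave a further view of each branch. Of 39 other integrated stress response genes 36 were tested; 6 rose and 3 fell with si-BAP1, and 5 rose and 5 fell with si-MBD5, or 25% and 27.8% of those tested, beside 23.5% and 16.3% of all genes, so that the si-BAP1 share is near the background. STC2, a secreted glycoprotein induced by ATF4, fell in both by 0.27 (limma adjusted p = 0.000194) and 0.25 (adjusted p = 0.000874). ALDH18A1, the first enzyme of proline synthesis, rose by 0.34 (adjusted p = 5.74e-05) and 0.17 (adjusted p = 0.0146), and PYCR1, the last, by 0.20 (adjusted p = 0.007) and 0.25 (adjusted p = 0.0028). SLC7A1, a carrier of cationic amino acids, rose by 0.32 (adjusted p = 0.000215) and 0.15 (adjusted p = 0.0392). With si-BAP1, JDP2, a bZIP repressor, was higher by 0.25 (adjusted p = 0.00213) and NUPR1, a stress-induced chromatin protein, lower by 0.14 (adjusted p = 0.0298). SLC7A11, the cystine importer, rose with si-MBD5 by 0.19 (adjusted p = 0.0114) and differed by -0.02 with si-BAP1, a direct difference of -0.21 (adjusted p = 0.00946).

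Of 48 other unfolded protein response genes 42 were tested; 12 rose and 3 fell with si-BAP1, or 35.7%, beside 23.5% of all genes (12.4% higher, 11.1% lower), and 3 rose and 6 fell with si-MBD5, or 21.4%, beside 16.3% (7.29% higher, 8.99% lower). The lectin chaperones went apart with si-BAP1 on their brightest probe sets. CANX (calnexin) fell from 4096, 3870 and 3853 in si-Control to 3247, 3133 and 3231, a difference of -0.30 (limma adjusted p = 1.2e-05). CALR (calreticulin) rose by 0.25 (limma adjusted p = 0.008), from a mean of 140 in si-Control to 169 in si-BAP1. Further probe sets of the wider-list genes were not read one by one. CANX read 3933, 3919 and 4104 in si-MBD5, and its direct difference was -0.31 (adjusted p = 2.66e-05). SSR1, a subunit of the translocon-associated complex, followed the same pattern, with -0.24 (adjusted p = 0.00479) in si-BAP1 and a direct difference of -0.28 (adjusted p = 0.00372). PDIA5, a disulfide isomerase, rose with si-BAP1 by 0.31 (adjusted p = 0.000268). KDELR3 and KDELR1, receptors that return ER chaperones from the Golgi, rose in both, by 0.15 and 0.21 with si-BAP1 and by 0.25 (adjusted p = 0.00027) and 0.22 (adjusted p = 0.00239) with si-MBD5. EDEM2, a degradation lectin, fell in both by 0.24 (adjusted p = 0.00157) and 0.21 (adjusted p = 0.00692).

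UBE2J1, the ubiquitin-conjugating enzyme of ER-associated degradation, was the gene of these wider lists that passed with opposite signs. It read 238, 237 and 249 in si-Control, 283, 291 and 271 in si-BAP1, and 212, 205 and 192 in si-MBD5, 3 separate bands. It rose by 0.21 (limma adjusted p = 0.00465) and fell by 0.23 (adjusted p = 0.00362), with a direct difference of 0.44 (adjusted p = 4.46e-05). With si-MBD5, SPCS3 of the signal peptidase and ERP44, which retains proteins for disulfide exchange, fell by 0.22 (adjusted p = 0.0037) and 0.19 (adjusted p = 0.00281). Directly compared, 11 of the 78 tested genes of the wider lists were higher and 3 lower with si-BAP1 than with si-MBD5, or 17.9%, beside 9.97% of all genes (5.76% higher, 4.21% lower); LARS1, a tRNA synthetase, and EDEM3 were among the former, at 0.17 (adjusted p = 0.00637) and 0.23 (adjusted p = 0.0255). That count of 14 fell to between 6 and 9 when si-BAP1 replicate 1, 2 or 3 or si-MBD5 replicate 1 was left out, and the si-MBD5 count of 19 fell to 12 without si-Control replicate 1 and to 11 without si-MBD5 replicate 1.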

How the data were processed

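Biotinylated cRNA for Affymetrix arrays was made from 6 ug of Trizol-extracted total RNA, per the labels. The deposited values are linear intensity, 1 per probe set and array, made with MAS5 per the submitters' processing notes; version, scaling target and probe sequences are not given in the sources used here. Array medians were alike (36.9 to 38.2), and no further scaling was applied. Of 49395 deposited probe sets, 44988 had 1 gene symbol, 1832 several, 2473 none and 102 were controls. Gene identifiers matched 44961 of the single symbols to a current symbol, changed or not, and 27 were kept as given. Probe sets with several symbols were not used, 1 of them naming a member.

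The log2 values were computed here from the deposited intensity after adding 16. Probe sets with a mean above the 40th percentile (25.5) were kept, and the brightest stood for its gene. Limma 3.58.1 (R 4.3.3) fitted 3 group means to 9 arrays with an intensity trend (6 residual degrees of freedom, 13.1 after moderation), with Benjamini-Hochberg adjustment over all genes, or over all 27195 probe sets where stated. Intervals are 95%. Single values were compared by exact permutation. The procedure was tested on simulated data. At most 5.49% of values were identical between 2 arrays, so no array was counted as a repeat. The identical values include bright ones, such as LARS1 at 985 in all 3 si-Control arrays (SD 0). How such ties arose, and their part in the spread within groups, was not tested. Signal over background and 3 arrays per group limit precision. Figures used matplotlib 3.10.9 (Python 3.11.15).

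The 42 members, the wider lists, markers and tests were chosen with earlier results of these data known. Described array by array were ATF4, XBP1, DDIT3, HSPA5, TRIB3, PPP1R15A, CHAC1 and ASNS and up to 4 members per role with the largest differences past the threshold; ATF6, UBE2J1 and CANX were added after their values were seen. From the wider lists, up to 5 genes per direction and comparison were named, and EIF2AK1 and EIF2AK2 were added after their values were seen. Alternatives were median centring or quantile normalization, adding 1 or 64, a filter at the 60th percentile or none, averaging probe sets, removing _x_at and _s_at sets, a replicate block, no trend, 2 groups only, and leaving out each array.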

Additional observations from a re-analysis of the deposited data

Results flagged for a closer look

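ATF5 and VLDLR stood out because their differences from si-Control had opposite signs in the 2 knockdowns and the difference between the knockdowns passed the test. ATF5 was 0.12 higher with si-BAP1 and differed by -0.09 with si-MBD5, and the si-BAP1 minus si-MBD5 difference in log2(intensity + 16) was 0.21 (limma adjusted p = 0.004, n = 3 arrays per group). VLDLR was 0.45 lower with si-BAP1 (log2 difference -0.45) and differed by 0.11 with si-MBD5, and the si-BAP1 minus si-MBD5 difference was -0.56 (limma adjusted p = 0.000201, n = 3 arrays per group). The differences with si-MBD5 did not pass by themselves.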

How the results depend on the processing

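Across 11 changes of setting the count of members past the threshold was 11 to 15 for si-BAP1 (14 as reported), 10 to 13 for si-MBD5 (13) and 3 to 4 between the knockdowns (3). Leaving out 1 array gave 10 to 11, 7 to 14 and 2 to 4, with the counts of 7 and 8 for si-MBD5 coming without si-Control replicate 2 and without si-MBD5 replicate 1; the cause was not tested. No member call reversed, and 8 of 14, 5 of 13 and 2 of 3 calls were kept under all alternatives. The arrays whose removal ended a call are named beside it. Changes of setting also ended calls: those of MANF, ATF5, PHGDH and MTHFD2 with si-BAP1, and those of MANF, CEBPG, CEBPB, TRIB3 and WARS1 with si-MBD5. Replicate numbers showed no clear pairing of the samples. Same-numbered arrays of different groups had correlated deviations of -0.43 to 0.48, over 0.1 in 3 of 9 pairs. The 18 other pairs ran from -0.56 to 0.47, over 0.1 in 6. Deviations from a mean of 3 arrays sum to 0 within a group, so these correlations cannot exclude a pairing. With the replicate block the counts were 11, 11 and 3. The counts over all genes ranged from 2245 to 2591, 1266 to 1959 and 721 to 1328 when 1 array was left out (2918, 2025 and 1240 as reported), lowest without si-Control replicate 2 for si-MBD5 and without si-MBD5 replicate 1 between the knockdowns. Of the uncalled members, HSPA5 passed as lower with the mean of probe sets (-0.22 and -0.27) and without the _x_at and _s_at types (-0.31 and -0.32), which turned the sign of its si-BAP1 difference. With no filter the wider lists gave 9 genes between the knockdowns in place of 14.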
